A study of Mus musculus with 4 samples.

Results

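The oxidative phosphorylation genes are the genes of the mitochondrial respiratory chain and the ATP synthase, taken here by the start of their symbols (Nduf, Sdh, Uqcr, Cox4 to Cox8 and Atp5 in the nuclear genome; mt-Nd, mt-Co, mt-Cytb and mt-Atp in the mitochondrial genome). This gave 110 of the 31053 genes in the count matrices, 97 nuclear and 13 mitochondrial. The nuclear genes stood under 96 symbols, since Atp5o was listed with 2 identifiers. By role, 36 nuclear genes belonged to complex I, 4 to complex II, 8 to complex III, 20 to complex IV and 16 to complex V, 12 were assembly factors and 1 (Atp5s) was kept apart. Ndufa4, whose name comes from complex I, was counted with complex IV, of which its product is a subunit. The mitochondrial genes comprised 7 of complex I, 1 of complex III, 3 of complex IV and 2 of complex V.

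Complexes I, III and IV pass electrons from NADH to oxygen and pump protons across the inner mitochondrial membrane, complex II feeds electrons in from succinate, and complex V uses the proton gradient to make ATP. Complexes I, III, IV and V are built from subunits of both genomes, whereas complex II is wholly nuclear. In β-cells, ATP made from glucose closes potassium channels and so couples glucose metabolism to insulin secretion.

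Islets from adult male C57BL/6 mice (C57BL6/J in the study's methods) were pooled and then divided into 4 samples, which were left without cytokine or cultured for 6 h with IL-1β, IFN-γ or both, and each gave 1 library of 3′ single-cell RNA counts. The labels give the strain and no other genotype, and all 4 samples came from the same pool of islets. Cells were kept if 200 to 4000 genes were detected and no more than 12% of their UMIs (unique molecular identifiers, each marking 1 captured transcript) were mitochondrial, which left 1521 untreated, 2018 IL-1β, 2122 IFN-γ and 1810 IL-1β + IFN-γ cells with medians of 15454, 7462.5, 9615 and 11123.5 UMIs. With 1 library per condition, no difference between conditions has a replicate check, and intervals beside such differences are 95% intervals for counting error only.

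Cells were assigned by their leading hormone, which had to hold at least 5% of UMIs and at least 3 times the next hormone. β-cells numbered 1191, 1172, 1287 and 1297 in the order untreated, IL-1β, IFN-γ and both, α-cells 88, 337, 288 and 168, and δ-cells 27, 70, 109 and 49. All 8 β markers, 6 of 6 α markers and 4 of 4 δ markers were detected in their own class, led by Ins2, Gcg and Sst. That lead is built in, because these hormones set the classes. Detection alone does not separate the classes either. All 6 α markers also had a UMI in untreated β-cells, and all 8 β markers in untreated α-cells. Markers of other cells were present, and the summed acinar markers reached 289 counts per 1000000 UMIs (CPM) in β-cells with both cytokines against 76.6 CPM untreated. Larger values were seen in the other classes. In the order untreated, IL-1β, IFN-γ and both, the pancreatic polypeptide marker Ppy had 21166, 12615, 15924 and 16551 CPM in δ-cells. In α-cells Ppy had 2982, 2719, 3255 and 3601 CPM, and Spp1, listed as a ductal marker, 2286, 8838, 3170 and 4238. The source of these transcripts was not tested. Free RNA in droplets was not removed, so low levels of a gene can come from other cells. All 6 cytokine response genes checked (Nos2, Icam1, Sod2, Irf1, Gbp2 and Iigp1) stood more than 1.3-fold higher with both cytokines in β-, α- and δ-cells.

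In untreated islets, nuclear oxidative phosphorylation transcripts made up 1.41% of UMIs in β-cells, 2.27% in α-cells and 2.08% in δ-cells. With IL-1β these shares were 1.70%, 1.95% and 1.92%, with IFN-γ 1.67%, 2.17% and 2.02%, and with both cytokines 1.42%, 1.78% and 1.59%. In β-cells the share was thus higher than untreated with either cytokine alone and near untreated with both, whereas in α- and δ-cells all treated shares were lower. Insulin transcripts moved the β-cell denominator, as Ins1 and Ins2 took 42.1% of UMIs untreated and 22.0%, 28.6% and 33.3% with IL-1β, IFN-γ and both. With the hormone genes taken out of the denominator, the nuclear share in β-cells was 2.69% untreated and 2.38%, 2.55% and 2.28% with treatment, so that the direction turned. In α-cells the share on that scale was 3.03% untreated and 2.44%, 2.68% and 2.22% with treatment, and in δ-cells 2.77% against 2.40%, 2.61% and 2.0%. Mitochondrially encoded transcripts took 5.22% of UMIs in untreated β-cells and 6.52%, 6.61% and 5.29% with IL-1β, IFN-γ and both. Their share was 4.95% in untreated α-cells against 6.42%, 6.45% and 5.93%, and 4.16% in untreated δ-cells against 4.92%, 4.89% and 4.60%. Without the hormone genes in the denominator the mitochondrial share in β-cells was 9.96% untreated and 9.12%, 10.1% and 8.53% with treatment, so that the direction turned with IL-1β and with both. On the same scale it was 6.61% in untreated α-cells against 8.02%, 7.98% and 7.41%, and 5.55% in untreated δ-cells against 6.16%, 6.33% and 5.78%. The limit of 12% mitochondrial UMIs caps this share in each cell.

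Because the denominator shifted, each nuclear gene is described beside all genes at the same floor, a mean of at least 20 CPM over the compared libraries. The median of all genes stood at 0.48 log2 above untreated in IL-1β β-cells, 0.32 in IFN-γ β-cells and 0.17 in β-cells with both, and at -0.01, 0.08 and -0.11 in α-cells and 0.03, -0.04 and -0.14 in δ-cells. Of the 97 nuclear genes, 80 reached the floor in all 9 comparisons and 15 in none. The 15 included Cox4i2, Cox6a2, Cox6b2, Cox7a1, Cox7b2, Cox8b, Cox8c and Ndufa4l2, of which Cox8b had no UMI. The 3 treated libraries of a class share the untreated library, so their values are set side by side and are not independent of each other.

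In β-cells the median nuclear member stood at 0.25, 0.22 and -0.01 log2 of CPM with IL-1β, IFN-γ and both, or -0.24, -0.10 and -0.17 relative to the median of all genes. At least 1.3-fold higher by CPM were 31 of 81 members with IL-1β (57.5% of all genes tested), 24 of 80 with IFN-γ (42.5% of all genes) and 5 of 81 with both (36.3% of all genes). At least 1.3-fold lower were 3 members with IL-1β, where all genes gave 9.34%, none with IFN-γ against 1.76%, and 4 with both against 17.0%. Relative to the median of all genes the split turned round. On that scale 5 members stood higher and 35 lower with IL-1β (backgrounds 25.2% and 27.0%), 1 higher and 3 lower with IFN-γ (10.1% and 10.2%), and 3 higher and 18 lower with both (26.5% and 24.4%). The distance to all genes differed with the cells and the total used. β-cells of 5000 to 15000 UMIs gave median differences of -0.08, 0.03 and -0.06 in the same order, and leaving out the hormone genes gave -0.18 with IL-1β and -0.15 with both. That window kept 376 of 1191 untreated β-cells and 1025 of 1172 with IL-1β, so it also changed which cells were compared. The part of depth itself was not tested.

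In α-cells the nuclear median was -0.29, -0.07 and -0.44 log2 with IL-1β, IFN-γ and both. There 4 members stood at least 1.3-fold higher and 34 lower of 82 with IL-1β, where all genes gave 25.8% and 26.7%. With IFN-γ none stood higher and 13 lower (24.6% and 12.9% of all genes), and with both 2 higher and 45 lower (23.9% and 32.8%). Relative to the median of all genes, 34, 20 and 35 stood lower with IL-1β, IFN-γ and both (26.1%, 18.0% and 27.5% of all genes). On that scale 5, 0 and 4 stood higher (26.2%, 19.3% and 28.4%). In δ-cells the medians were -0.18, -0.10 and -0.43. The counts there were 9 higher and 31 lower of 82 with IL-1β (32.0% and 30.2% of all genes), 10 and 10 with IFN-γ (22.4% and 27.1%), and 4 and 43 with both (27.6% and 40.3%). The untreated δ-cells were only 27, and the median nuclear member had 53.5 UMIs there, so single genes in that class carry wide intervals.

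Complex I lay lowest among the 5 complexes in most comparisons. Relative to the median of all genes, the median of its 36 nuclear subunits was -0.41, -0.18 and -0.29 log2 in β-cells with IL-1β, IFN-γ and both, -0.51, -0.18 and -0.47 in α-cells, and -0.45, -0.09 and -0.46 in δ-cells. Below the median of all genes were 30, 26 and 34 of the 36 subunits in β-cells, 29, 29 and 32 in α-cells, and 28, 22 and 31 in δ-cells. Complex III, by contrast, stood at -0.08, 0.02 and 0.05 in β-cells, 0.01, -0.12 and 0.05 in α-cells, and -0.10, -0.09 and 0.04 in δ-cells. The nuclear members of complex IV stood at -0.10, -0.04 and -0.05 in β-cells, -0.18, -0.11 and 0.01 in α-cells, and 0.05, 0.08 and 0.04 in δ-cells. For complex V the medians were -0.09, 0.01 and -0.14 in β-cells, -0.10, -0.01 and -0.23 in α-cells, and -0.15, 0.02 and -0.34 in δ-cells, and for the 4 subunits of complex II -0.13, -0.08 and -0.19, then -0.29, -0.14 and -0.34, then 0.11, 0.39 and -0.04. Assembly factors gave -0.49, -0.11 and -0.27 in β-cells, -0.50, -0.38 and -0.20 in α-cells, and -0.32, -0.24 and -0.49 in δ-cells. The complex I medians remained below all genes in each of 10 alternative settings per comparison, with ranges of -0.48 to -0.25 for IL-1β β-cells, -0.20 to -0.05 for IFN-γ β-cells and -0.30 to -0.19 for β-cells with both. No test sets the complexes against each other.

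**Figure D1:**
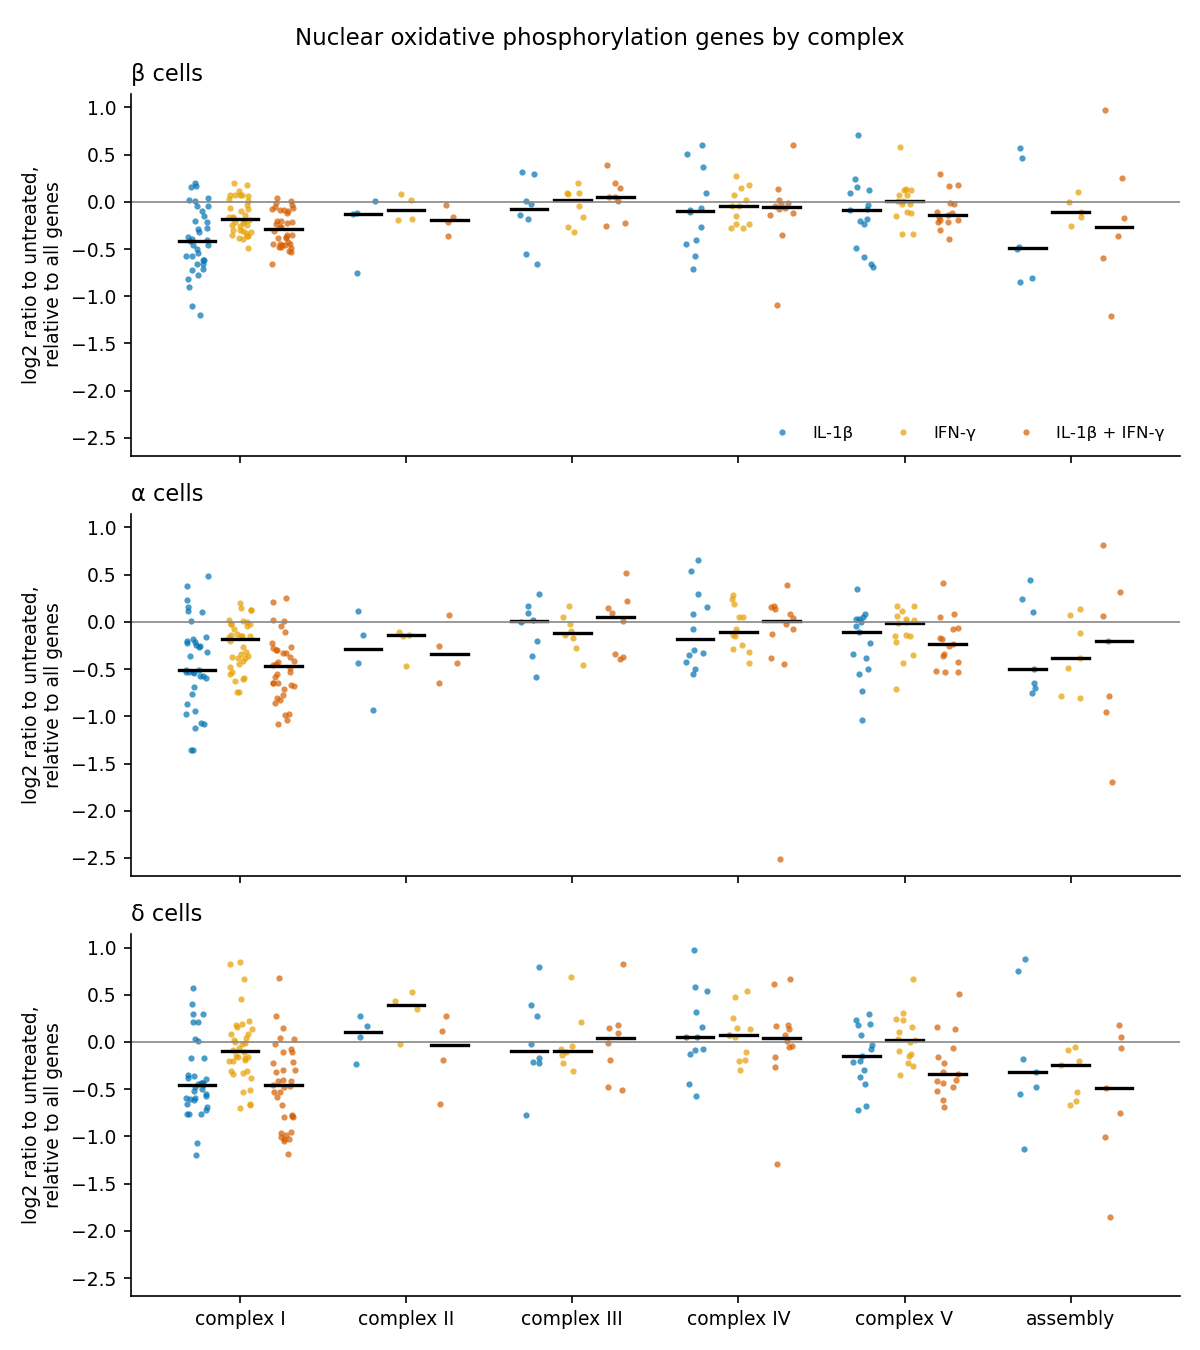
Nuclear oxidative phosphorylation genes by complex. The y axis gives the log2 ratio of CPM to the untreated library after subtraction of the median of all genes at the same floor, each point is 1 gene, lines are medians, colours are the treated libraries and panels the cell classes. Most complex I genes lie below 0, for example 30 of 36 in β-cells with IL-1β. The medians of complexes III and IV range from -0.18 (IV, α-cells with IL-1β) to 0.08 (IV, δ-cells with IFN-γ).

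Several complex I subunits carried this pattern. Ndufs8, an iron-sulfur subunit of the electron-transferring arm (chr19:3908863-3912774, minus strand), had 50.9 CPM in untreated β-cells, 30.9 with IL-1β and 49.7 with IFN-γ, and 41.8 with both. In α-cells the same gene had 85.8, 39.1, 54.4 and 46.6 CPM. Its IL-1β level was the lowest in both classes, at 0.607-fold of untreated (0.535 to 0.689) in β-cells and 0.456-fold (0.336 to 0.619) in α-cells. Ndufb8, an accessory subunit of the membrane arm (chr19:44548572-44555440, minus strand), had 181, 118, 161 and 129 CPM in β-cells, 196, 98.8, 160 and 114 CPM in α-cells and 170, 102, 163 and 107 CPM in δ-cells. In all 3 classes the libraries with IL-1β, alone or combined, were the lower ones. Its fold with IL-1β was 0.652 (0.611 to 0.696) in β-cells, 0.505 (0.414 to 0.616) in α-cells and 0.603 (0.389 to 0.935) in δ-cells.

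Ndufa11, an accessory membrane-arm subunit (chr17:56717767-56722141, plus strand), stood at 153, 115, 147 and 125 CPM in β-cells and at 263, 102, 166 and 119 CPM in α-cells. Ndufb7, another membrane-arm subunit, had 262 CPM in untreated α-cells and 101, 188 and 115 with IL-1β, IFN-γ and both. In β-cells Ndufb7 varied less, with 130, 111, 127 and 127 CPM. With IL-1β the α-cell folds were 0.389 (0.324 to 0.466) for Ndufa11 and 0.387 (0.323 to 0.464) for Ndufb7. Ndufb11, the complex I gene with the highest mean CPM over the 12 sums of class and library, had 300, 282, 327 and 234 CPM in β-cells, 415, 289, 383 and 247 in α-cells and 489, 293, 413 and 257 in δ-cells. With both cytokines it was lowest in all 3 classes, at 0.779-fold (0.748 to 0.812), 0.594-fold (0.515 to 0.687) and 0.526-fold (0.398 to 0.695). Ndufs7, an iron-sulfur subunit, had 99.6, 79, 107 and 85.8 CPM in β-cells and 144, 94.5, 110 and 82.1 in α-cells, and Ndufa13, a membrane-arm subunit, had 397, 233, 277 and 270 CPM in α-cells.

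The members with the largest ratios to untreated in β-cells were mostly not complex I subunits. Cox5a, a nuclear subunit of complex IV (chr9:57521274-57532426, plus strand), had 111 CPM untreated and 235, 167 and 188 with IL-1β, IFN-γ and both, or 2.12-fold (2.01 to 2.25), 1.51-fold (1.43 to 1.6) and 1.7-fold (1.61 to 1.8). All 3 treated β-cell values lay above the untreated one and by more than the shift of all genes. In α-cells Cox5a had 134, 163, 128 and 140 CPM, and in δ-cells 141, 283, 143 and 205. Atp5k, a small subunit of the ATP synthase that takes part in its dimers (chr5:108433244-108434448, minus strand), had 77.5, 177, 145 and 107 CPM in β-cells, with folds of 2.29 (2.14 to 2.45), 1.87 (1.75 to 1.99) and 1.38 (1.29 to 1.48). Its α-cell values of 192, 203, 202 and 158 CPM showed no such gap. Cox6c, a complex IV subunit, stood at 353, 703, 501 and 376 CPM in β-cells, 685, 1068, 886 and 702 in α-cells and 602, 921, 851 and 527 in δ-cells. In each class Cox6c was highest with IL-1β alone, at 1.99-fold (1.93 to 2.06), 1.56-fold (1.43 to 1.7) and 1.53-fold (1.26 to 1.85). With both cytokines the folds were 1.06, 1.02 and 0.875, nearer to untreated. Cox7c, also of complex IV, had 285, 513, 375 and 314 CPM in β-cells and 568, 819, 622 and 589 in α-cells.

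In complex III, Uqcrq, a small subunit, had 292, 506, 420 and 430 CPM in β-cells, where every treated value lay above untreated. In α-cells the order was the other way, with 367, 283, 283 and 269 CPM. The ratio of Uqcrq with IL-1β was 1.74 (1.67 to 1.8) in β-cells and 0.771 (0.675 to 0.881) in α-cells, and this difference between classes was not tested. Uqcrfs1, the Rieske iron-sulfur protein, had 129, 229, 203 and 208 CPM in δ-cells, from 32 untreated UMIs. The complex III gene with the highest mean CPM over the 12 sums, Uqcrh, a hinge protein of cytochrome c1, had 256, 324, 342 and 298 CPM in β-cells and 453, 482, 498 and 465 in α-cells. The genes highest by that mean in the other complexes were Sdha, the flavoprotein of complex II, with 91.9, 130, 122 and 101 CPM in β-cells, Cox8a of complex IV, with 600, 616, 677 and 620, and Atp5e, the ε subunit of the ATP synthase, with 368, 547, 462 and 376.

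Among the complex II assembly factors, Sdhaf4, which binds the flavoprotein Sdha before it joins the complex (chr1:23995939-24005656, minus strand), had 43.6 CPM in untreated β-cells, 33.8 with IL-1β and 58.5 with IFN-γ, and 21.2 with both. In α-cells its values were 61.8, 39.1, 71.7 and 29.5 CPM, and in δ-cells 158, 116, 130 and 39.8. The library with both cytokines was the lowest in each class, at 0.486-fold (0.428 to 0.55), 0.478-fold (0.322 to 0.71) and 0.253-fold (0.135 to 0.473) of untreated. Sdhaf2, which is needed for attachment of the flavin to Sdha, went the other way in β-cells, with 16.4, 33.9, 23.4 and 36 CPM. Its β-cell folds were 2.07 (1.78 to 2.41) with IL-1β and 2.2 (1.92 to 2.52) with both. In α-cells Sdhaf2 had 22.9, 30.9, 25.5 and 37.4 CPM, and in δ-cells, at 13 untreated UMIs, 52.5, 43.1, 35.4 and 45.9.

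Further members stood at the ends of single comparisons. In β-cells Ndufaf4, an assembly factor of complex I, had 24.8, 47.8, 31 and 33.1 CPM, and Ndufa5, a subunit of the electron-transferring arm, 70.8, 114, 102 and 77.7. With both cytokines Sdhaf1, an assembly factor of complex II, was 0.743-fold (0.657 to 0.841) of untreated in β-cells. In α-cells Ndufaf8, an assembly factor of complex I, was 0.615-fold (0.457 to 0.828) with IFN-γ, and Ndufaf2, another, was 0.287-fold (0.154 to 0.533) with both, from 15 UMIs. The higher end in α-cells held Ndufs1, the largest iron-sulfur subunit of complex I, at 1.39-fold (1 to 1.92) with IL-1β, Cox7a2l at 254 CPM untreated and 317 with IFN-γ, and Uqcrc1, a core protein of complex III, at 1.33-fold (0.922 to 1.92) and Atp5c1 at 1.23-fold (1.07 to 1.42) with both. In δ-cells Ndufb3, a membrane-arm subunit of complex I, had 291, 188, 199 and 116 CPM, highest untreated and lowest with both. Ndufa12 and Ndufa9, both of complex I, were 0.598-fold (0.461 to 0.776) and 0.613-fold (0.36 to 1.04) with IFN-γ there, while Ndufc1 and Ndufv3, of the same complex, were 1.75-fold (1.18 to 2.6) and 1.73-fold (1.16 to 2.58).

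Ndufa4, a subunit of complex IV (chr6:11900292-11907497, minus strand), stood lower with the combination than with no cytokine or a single one. It had 288 CPM in untreated β-cells, 335 with IL-1β and 305 with IFN-γ, and 151 with both. In α-cells the values were 447, 361, 425 and 72.9 CPM, and in δ-cells 461, 431, 418 and 171. In each class the library with both cytokines stood apart below the other 3, which lay within 1.3-fold of each other. The fold with both against untreated was 0.525 (0.501 to 0.551) in β-cells, 0.163 (0.132 to 0.201) in α-cells and 0.372 (0.27 to 0.512) in δ-cells. Among all genes at the floor in α-cells, its fold with both was the 24th lowest of 5727, against 255th of 4790 in β-cells and 471st of 5958 in δ-cells. Set against IL-1β alone, the α-cell fold of 0.202 was the 2nd lowest of 5573 genes. An Ndufa4 UMI was seen in 88.6% of untreated α-cells, 78.9% with IL-1β and 91.3% with IFN-γ, and 39.9% with both, while α-cell depth was 10864.5, 6496, 8062 and 8615 UMIs in that order. Ndufa4l2, its paralog, was close to 0 throughout. AA467197, a second paralog, had 0.447 CPM in untreated β-cells and 2.19 with both. In the order untreated, IL-1β, IFN-γ and both, it had 1.14, 2.15, 3.89 and 1.31 CPM in α-cells and 0, 2.69, 0 and 0 in δ-cells.

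**Figure D2:**
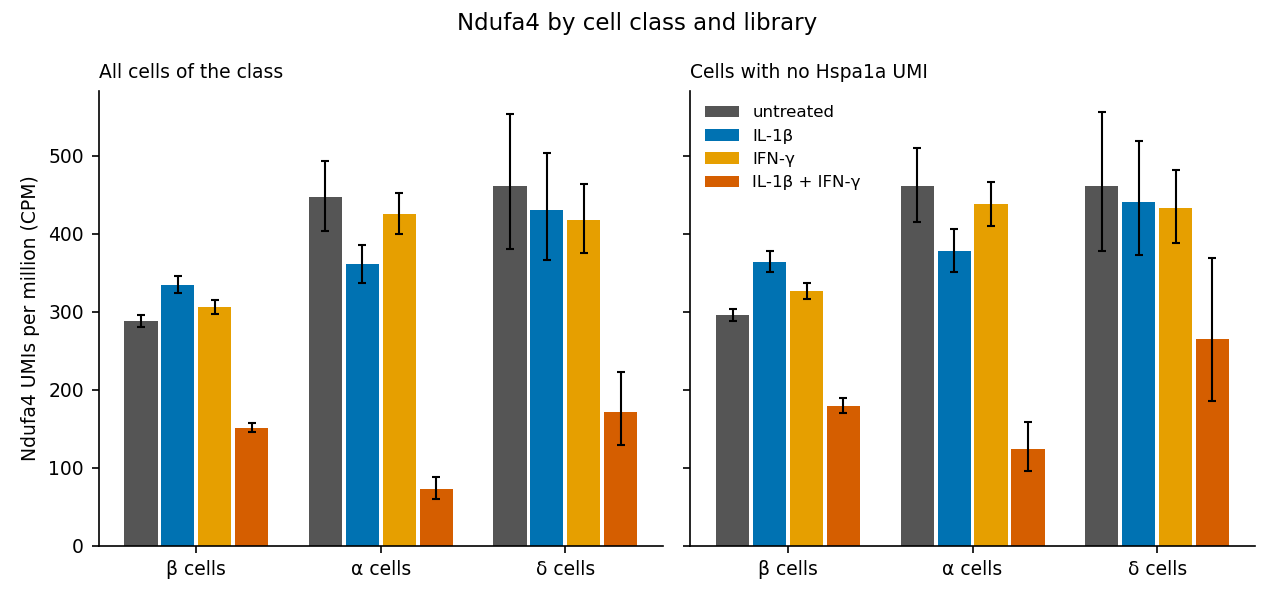
Ndufa4 in all cells of each class (left) and in those without an Hspa1a UMI (right). The y axis gives CPM, each bar is 1 library, and error bars are 95% Poisson intervals for counting error only. Over all cells of every class the library with both cytokines is the lowest, at 151, 72.9 and 171 CPM.

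Ndufa4 also varied with Hspa1a, an inducible heat shock chaperone, within every library. In β-cells without an Hspa1a UMI it had 296, 364, 326 and 179 CPM in the order untreated, IL-1β, IFN-γ and both. In β-cells with at least 10 Hspa1a UMIs per 10000, it had 103, 89.9, 89.6 and 75.8 CPM, from 20, 102, 80 and 90 cells. The combined-cytokine library remained the lowest among cells without an Hspa1a UMI, with folds to untreated of 0.606 (0.571 to 0.643) in β-cells, 0.269 (0.206 to 0.352) in α-cells and 0.576 (0.394 to 0.843) in δ-cells. Among the Hspa1a-high β-cells the libraries lay close together, with a fold of 0.737 (0.467 to 1.16) for both cytokines against untreated. Hspa1a itself stood at 87.4, 279, 210 and 291 CPM in β-cells, 85.8, 191, 87.2 and 773 in α-cells and 4.04, 51.1, 399 and 1417 in δ-cells. In δ-cells, 18 of 49 cells were Hspa1a-high after both cytokines, against 3 of 109 after IFN-γ alone and 1 of 70 after IL-1β alone. Untreated it was 0 of 27, which allows a share of up to 11.1%.

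**Figure D3:**
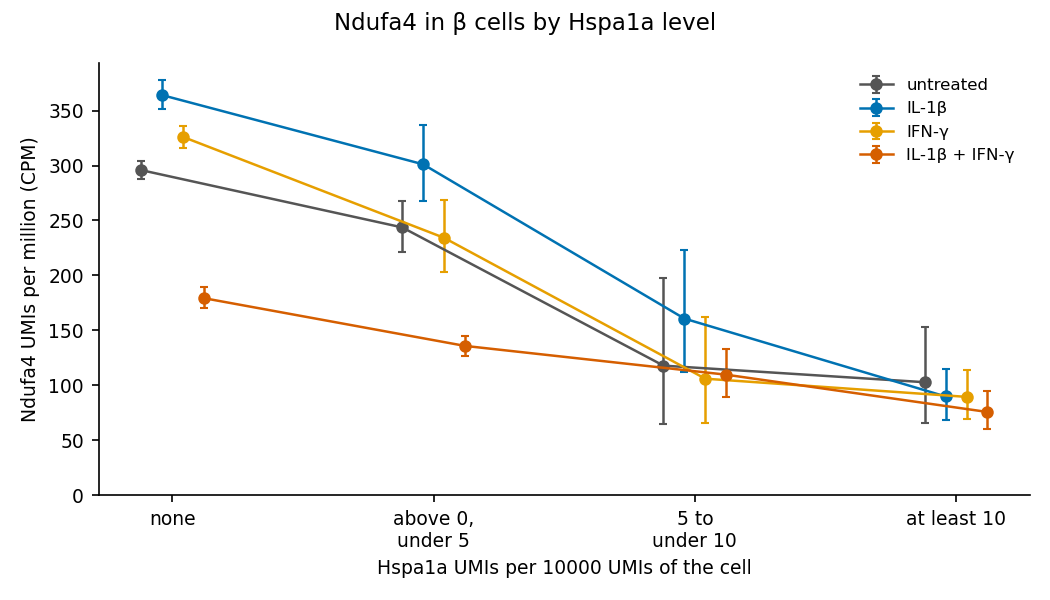
Ndufa4 in β-cells by their Hspa1a level. The x axis groups cells by Hspa1a UMIs per 10000, the y axis gives Ndufa4 in CPM with 95% Poisson intervals, and each line is 1 library. The value is lower in the group of highest Hspa1a than in the group without an Hspa1a UMI in all 4 libraries, for example 89.9 against 364 CPM with IL-1β.

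The comparison of Hspa1a-high with other β-cells was made within each library, and so was tested with edgeR over the 4 libraries with library as a block. Ndufa4 was lower in Hspa1a-high cells in 4 of 4 libraries, by a log2 difference of -1.51 ± 0.17 (SE, adjusted p = 3.17e-05). A further 14 nuclear members were higher (3.22% of 10747 genes were higher and 2.93% lower). They comprised 5 of complex I, 1 of complex III, 2 of complex IV and 6 of complex V. Atp5c1, the γ subunit of the ATP synthase, had 352, 374, 369 and 267 CPM in Hspa1a-high cells against 173, 283, 232 and 217 in other cells, a log2 difference of 0.66 ± 0.15 (adjusted p = 0.0156). Ndufb10 of complex I (0.63), Atp5h of the ATP synthase (0.63), Ndufa12 of complex I (0.60) and Uqcrb of complex III (0.60) followed, each higher in 4 of 4 libraries. The calls of these 5 genes were lost in 3 to 5 of 12 alternative settings each. The count of called nuclear members, 15 in all, depended on single libraries, with 1 called without the untreated library, 2 without IL-1β, 1 without IFN-γ and 21 without the combination. Ndufa4 itself had a log2 difference of -1.69 to -1.40 in these refits. Of the mitochondrial genes, mt-Nd3 (-0.99 ± 0.20, adjusted p = 0.00706) and mt-Nd1 (-0.69 ± 0.17, adjusted p = 0.0214) were lower in Hspa1a-high cells. These were the only mitochondrial genes called, and 1 was called without the untreated library, 1 without IFN-γ, 2 without IL-1β, 3 without the combination and none without the block. Hspa1a-high cells also held more δ-cell markers in every library, with 1432 against 93.5 CPM untreated, 1060 against 714 with IL-1β, 754 against 139 with IFN-γ and 2265 against 245 with both. The pancreatic polypeptide marker Ppy was higher in them as well, with 592 against 353, 542 against 485, 586 against 509 and 1241 against 329 CPM in the same order. With both cytokines the summed α markers were also higher, at 3255 against 782 CPM, and the acinar markers at 1184 against 227, whereas in the other 3 libraries the α markers were lower in Hspa1a-high cells. Their median depth was 12594 against 17199, 6423 against 8559.5, 8819 against 11199 and 12111 against 12270 UMIs, and the part of these other cell types and of depth in the result was not tested.

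The promoters of 3 members are given because their genes marked the pattern. In β-cells Ndufa11 stood on the lower side and Atp5k on the higher side, and Ndufa4 was chosen for its combined-cytokine level. The sequences are the 250 bases before the start in RefSeq on GRCm38.p6, on the strand of the gene, and capitals mark the overlapping matches of GCGCATGCG, a motif of nuclear respiratory factor 1 (NRF1), on both strands. Their positions are chr17:56717512-56717761 on the plus strand, chr5:108434400-108434649 on the minus strand and chr6:11907451-11907700 on the minus strand.
Ndufa11: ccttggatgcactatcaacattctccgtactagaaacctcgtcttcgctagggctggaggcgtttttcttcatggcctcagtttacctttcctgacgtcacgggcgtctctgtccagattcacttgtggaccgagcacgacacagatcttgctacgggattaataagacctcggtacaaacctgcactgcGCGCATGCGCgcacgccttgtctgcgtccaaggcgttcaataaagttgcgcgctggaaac
Atp5k: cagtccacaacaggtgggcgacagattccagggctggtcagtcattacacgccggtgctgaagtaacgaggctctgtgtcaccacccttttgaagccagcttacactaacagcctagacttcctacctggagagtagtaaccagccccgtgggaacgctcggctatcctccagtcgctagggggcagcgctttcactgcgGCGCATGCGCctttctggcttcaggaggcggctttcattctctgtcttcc
Ndufa4: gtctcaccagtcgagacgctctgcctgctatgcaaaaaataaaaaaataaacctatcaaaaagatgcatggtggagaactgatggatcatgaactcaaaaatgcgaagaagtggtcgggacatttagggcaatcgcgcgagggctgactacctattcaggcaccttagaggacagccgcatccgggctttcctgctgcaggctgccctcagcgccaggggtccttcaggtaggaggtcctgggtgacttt

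RefSeq windows of 300 bases (250 before to 50 after the start) were found for 78 of the 96 nuclear symbols, with 83 windows in all. GCGCATGCG was present on either strand in 10 of the 83 windows (12%), against 1.75% of all 32851 windows. The members with it were Atp5g2, Atp5k, Atp5l, Cox6a1, Ndufa11, Ndufa8, Ndufaf4, Ndufaf5, Uqcr11 and Uqcrc1. AAGATGGCG, a YY1 motif, was present in 8 member windows (9.64% against 1.4%), TCAAGGTCA, an estrogen-related receptor motif, in 2 (2.41% against 0.423%), and CCGGAAGTG, an ETS motif, in 2 (2.41% against 2.03%). The printed Ndufa4 window held none of the 4 motifs. The NRF1 match stood in the windows of both Ndufa11 and Atp5k, whose ratios to untreated lay on opposite sides in β-cells. A match is a description of letters and not of a bound site.

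For the mitochondrial genes, all 13 lie on the 1 circular genome and are transcribed as long precursors, so their transcripts are not made independently. Summed, they stood at 0.32, 0.34 and 0.02 log2 above untreated in β-cells with IL-1β, IFN-γ and both, 0.37, 0.38 and 0.26 in α-cells and 0.24, 0.23 and 0.14 in δ-cells. Relative to the median of all genes this was -0.16, 0.02 and -0.15 in β-cells, 0.38, 0.30 and 0.36 in α-cells and 0.21, 0.27 and 0.28 in δ-cells. With a mitochondrial limit of 20% the δ-cell values turned to -0.15 with IL-1β and -0.05 with both. The genes did not move as a block, as the complex I genes gave 17.7%, 19.4%, 19.7% and 15.2% of mitochondrial UMIs in β-cells, 20.3%, 23.4%, 23.5% and 19.1% in α-cells and 18.7%, 18.8%, 20.1% and 13.6% in δ-cells. The share was lowest with both cytokines in all 3 classes.

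mt-Nd3, a core subunit of complex I (chrM:9459-9806), showed a wide gap between single and combined cytokines. In β-cells it had 814 CPM untreated, 1726 with IL-1β and 1363 with IFN-γ, and 614 with both. In α-cells it had 961, 2140, 1562 and 924 CPM, and in δ-cells 546, 1034, 823 and 386. Each single cytokine thus stood above untreated in all 3 classes, and the combination stood below it in β- and δ-cells and within counting error of it in α-cells. The folds in β-cells were 2.12 (2.08 to 2.17), 1.67 (1.64 to 1.71) and 0.754 (0.735 to 0.773), and in α-cells 2.23 (2.07 to 2.4), 1.63 (1.51 to 1.75) and 0.961 (0.883 to 1.05). mt-Nd1 had 2204, 3024, 3028 and 1999 CPM in β-cells and mt-Nd2 had 2296, 2748, 2977 and 1751, both lowest in the combined library. mt-Nd4l, whose reading frame overlaps that of mt-Nd4, had 210, 219, 240 and 108 CPM in β-cells, 156, 189, 211 and 95.2 in α-cells and 174, 180, 162 and 55.1 in δ-cells. mt-Nd4 had 3201, 4244, 4676 and 3154 CPM in β-cells and mt-Nd5 482, 625, 703 and 424. mt-Nd6, the member encoded on the opposite strand, had 23.8, 23.7, 28.3 and 14.6 CPM there.

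Outside complex I, mt-Co1, the catalytic subunit of complex IV, had 8500, 12548, 11819 and 10660 CPM in β-cells, 6790, 9564, 9239 and 9278 in α-cells and 6199, 8520, 7454 and 8787 in δ-cells. All treated values of mt-Co1 lay above untreated, with folds for both cytokines of 1.25 (1.25 to 1.26), 1.37 (1.33 to 1.41) and 1.42 (1.33 to 1.51). In β-cells mt-Co2 had 8981, 10697, 11043 and 9572 CPM and mt-Co3 11778, 15118, 14993 and 11660. mt-Cytb, the core of complex III, had 4653, 5221, 5527 and 4070 CPM. The ATP synthase gene mt-Atp6 had 9039, 8883, 9605 and 8871 CPM, and mt-Atp8, which overlaps it, 43, 78, 70.3 and 38.7. Overlapping reading frames and copies of mitochondrial sequence in the nuclear genome can split or add counts, so these values are levels as counted.

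**Figure D4:**
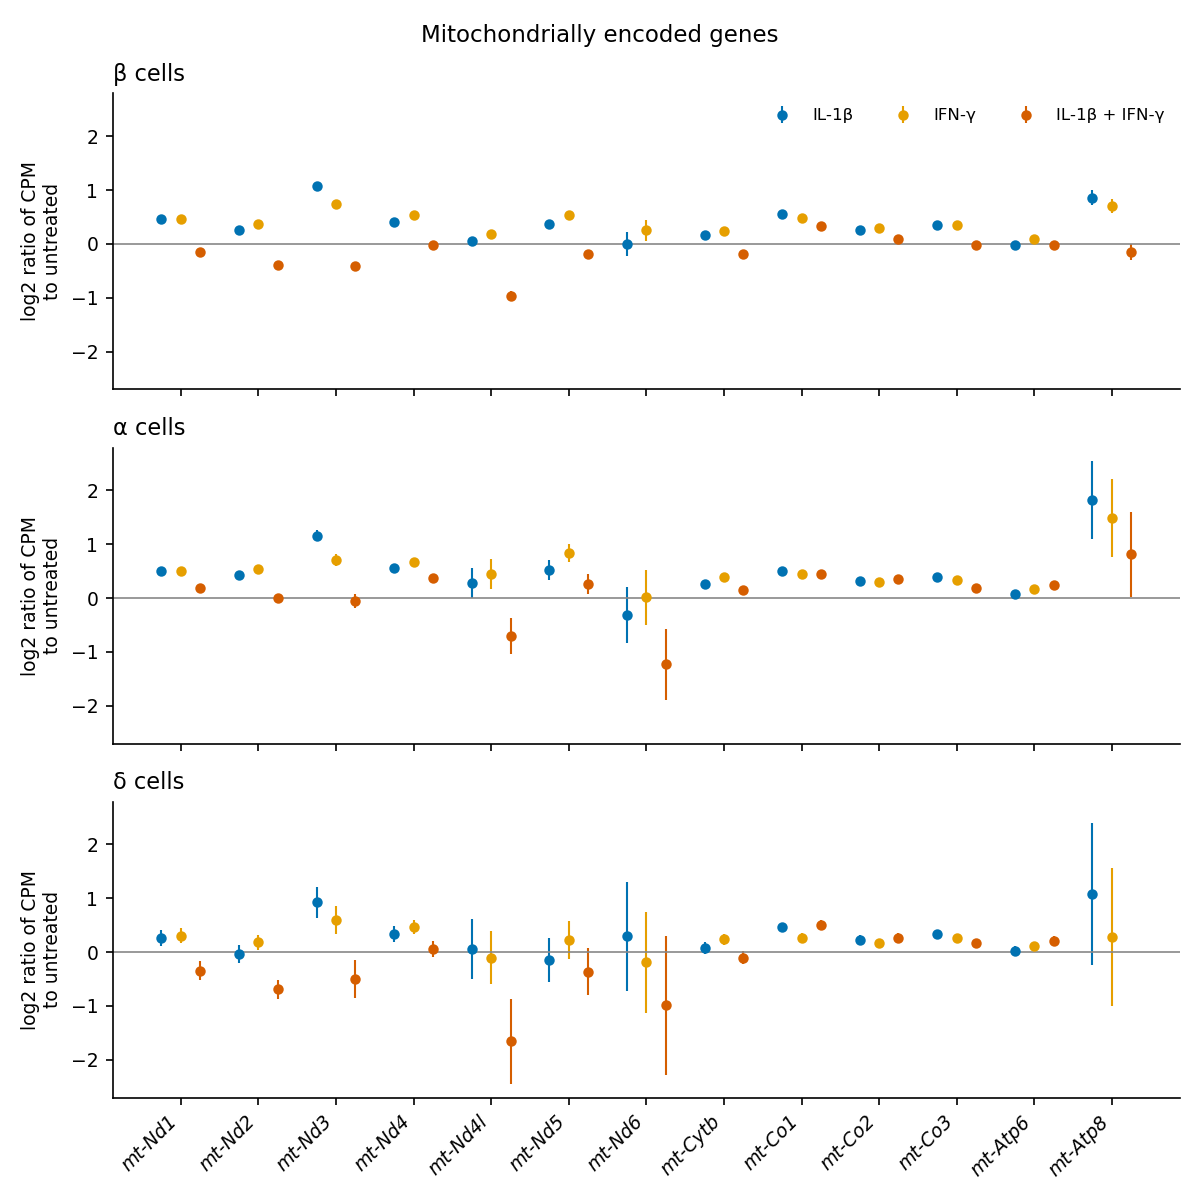
The 13 mitochondrially encoded genes in β-, α- and δ-cells. The y axis gives the log2 ratio of CPM to the untreated library, each point is 1 gene in 1 treated library, bars are 95% intervals for counting error only, and genes under the floor with both cytokines, mt-Nd6 in β-cells and mt-Atp8 (5 UMIs) in δ-cells, are not drawn. mt-Nd3 lies well above 0 with either cytokine alone and not with both, and mt-Co1 lies above 0 in all 9 comparisons.

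The cell classes were compared with edgeR on the summed UMIs of each class and library (12 sums, library as block, 10163 genes). Without the block 8, 6 and 4 nuclear members were called in the 3 contrasts, in the order given below. Since the 4 libraries differ in treatment, the spread includes any difference in response, and log2 differences are after edgeR's scaling (TMM) and so differ from ratios of CPM. Between α- and β-cells, 22 of 89 nuclear members tested were higher in α-cells and 14 lower, where all genes gave 19.8% and 21.6%. Complex V leaned to α-cells, with 8 of 15 higher and 1 lower, while complex I gave 8 higher and 5 lower of 36 and the assembly factors 1 and 1 of 12. Between δ- and β-cells, 6 nuclear members were higher in δ-cells and 19 lower (13.7% and 16.1% of all genes). Between α- and δ-cells, 18 were higher in α-cells and 3 lower (8.21% and 8.88% of all genes), among them 9 of the 15 members of complex V, all higher in α-cells. The nuclear counts were smaller with 3 libraries. In total 25 were called between δ- and β-cells, and 16 without the IFN-γ library. Between α- and δ-cells 21 were called, and 11 without IFN-γ and 13 without IL-1β.

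Cox6a2 and Cox7a2l, both of complex IV, were among the largest class differences of the module. Cox6a2, the heart and muscle isoform of subunit 6a (chr7:128205435-128206387, minus strand), had 9, 18.4, 18.2 and 12.6 CPM in β-cells, or 14.5 ± 4.55 (SD, n = 4). In α-cells it had 2.29, 1.72, 0.864 and 0 CPM, from 8 UMIs in all, and in δ-cells none of 1792919 UMIs. All 4 β-cell values lay above all α-cell values, with a log2 difference of -4.02 ± 0.38 for α- against β-cells. The β-cell sums held 181 to 259 UMIs and the α-cell sums at most 4. Its place in the test thus rests on the β-cell counts, and no p-value is given. Against δ-cells the β-cell level was at least 8.18-fold higher, with 3 counts over the whole group as the floor. Its partner Cox6a1, the isoform found in most tissues, was read in every class, with 193, 258, 245 and 239 CPM in β-cells and 407, 302, 318 and 291 in α-cells. Cox7a2l, a relative of subunit 7a, had 535, 455, 550 and 469 CPM in β-cells, 254, 282, 317 and 309 in α-cells and 222, 283, 302 and 309 in δ-cells. It was higher in β-cells in 4 of 4 libraries against either class, with log2 differences of -1.10 ± 0.12 for α-cells (adjusted p = 1.05e-06) and -1.25 ± 0.14 for δ-cells (adjusted p = 1.39e-06).

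Other isoform pairs were dominated by a single form in these cells. Cox4i1 had 440, 412, 454 and 479 CPM in β-cells and 652, 442, 566 and 626 in α-cells, while Cox4i2 was close to 0. Cox7a2 had 283, 422, 391 and 322 CPM in β-cells, and Cox7a1 was under the floor. Cox6b1 (203, 214, 216 and 218 CPM in β-cells) was likewise read with only 10 UMIs of Cox6b2 over all classes and libraries, and Cox8a with none of Cox8b. Cox5b, which unlike its name is not an isoform of Cox5a but a separate subunit, had 209, 271, 254 and 233 CPM in β-cells. The 3 genes for subunit c of the ATP synthase were all read in β-cells, with 341, 296, 336 and 357 CPM for Atp5g1, 332, 330, 381 and 325 for Atp5g2 and 168, 256, 222 and 173 for Atp5g3. Several of these genes have processed pseudogenes, whose reads the counting could have split.

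Sdhd, a membrane anchor of complex II, marked α-cells, with 174, 128, 167 and 136 CPM there against 67.4, 85.9, 73.8 and 65.3 in β-cells and 68.7, 72.7, 85 and 39.8 in δ-cells. Its log2 difference was 0.73 ± 0.11 against β-cells (adjusted p = 4.52e-05) and 1.2 ± 0.16 against δ-cells (adjusted p = 2.27e-05). Atp5e was higher in α-cells as well, with 857, 870, 923 and 670 CPM, by 0.62 ± 0.09 against β-cells (adjusted p = 3.85e-05) and 1.03 ± 0.10 against δ-cells (adjusted p = 1.01e-06). Ndufb6 (0.59), Ndufaf6 (0.54) and Cox7c (0.52) followed against β-cells, and Atp5k (0.71), Ndufb6 (0.65) and Cox6a1 (0.56) against δ-cells, each higher in 4 of 4 libraries. Of these the Ndufaf6 call was lost in 7 of 12 alternative settings, the Cox7c and Atp5k calls in 1 each, and the Ndufb6 and Cox6a1 calls in none. On the β-cell side, Uqcrq differed by -0.75 for α-cells and -0.91 for δ-cells, and Ndufv3, an accessory subunit of complex I, by -0.76 and -0.83. The untreated α-cells were an exception for Uqcrq, with 367 CPM against 292 in β-cells before edgeR's scaling. Sdhaf4 was the leading member of δ-cells, higher by 1.05 ± 0.15 against β-cells (adjusted p = 2.37e-05) and lower in α-cells than in δ-cells by -1.0 ± 0.16 (adjusted p = 0.000169). Ndufb4 (0.47), Uqcrfs1 (0.38), Ndufv2 (0.35) and Ndufc2 (0.34) were also higher in δ- than in β-cells, and Ndufc2 (-0.53) and Ndufa12 (-0.46) lower in α- than in δ-cells. The calls of Ndufv2 and Ndufc2 against β-cells were each lost in 6 of the 12 settings, that of Uqcrfs1 in 5 and that of Ndufb4 in 2, and against α-cells those of Ndufa12 in 4 and Ndufc2 in 2. Sdhaf3, at 4.3 ± 0.992 CPM in δ-cells and 7.99 ± 2 in β-cells (SD, n = 4), had a log2 difference of -1.25 (adjusted p = 0.044) that fell away to 0.015 when cells were assigned by leading hormone alone. The Sdhaf3 call was lost in 7 more of the 12 settings. Ndufaf7, an assembly factor of complex I, was lower in α- than in β-cells by -0.64 (adjusted p = 0.0127), a call lost in 3 of the 12 settings.

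Mitochondrially encoded transcripts were fewest in δ-cells. Against β-cells, 12 of the 13 were lower and 1 higher, where all genes gave 16.1% and 13.7%, and against α-cells 9 were lower in δ-cells and none higher, where all genes gave 8.21% and 8.88%. Between α- and β-cells, 9 were lower in α-cells and 1 higher (21.6% and 19.8% of all genes), and this total of 10 was 6 without the IFN-γ library. Without a block for library the total was 1, and that between α- and δ-cells was 4. mt-Co1 was lower than in β-cells by -0.63 in α-cells (adjusted p = 1.88e-05) and by -0.91 in δ-cells (adjusted p = 5.43e-07). mt-Nd3 separated δ-cells from both other classes, with log2 differences of 1.11 for α- against δ-cells (adjusted p = 5.33e-07) and -1.09 for δ- against β-cells (adjusted p = 3.28e-07). mt-Nd6 was the exception, higher by 0.49 in α-cells (adjusted p = 0.0051) and by 0.50 in δ-cells (adjusted p = 0.0454) than in β-cells. The δ-cell call of mt-Nd6 was lost in 10 of 12 alternative settings and the α-cell call in 1.

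**Figure D5:**
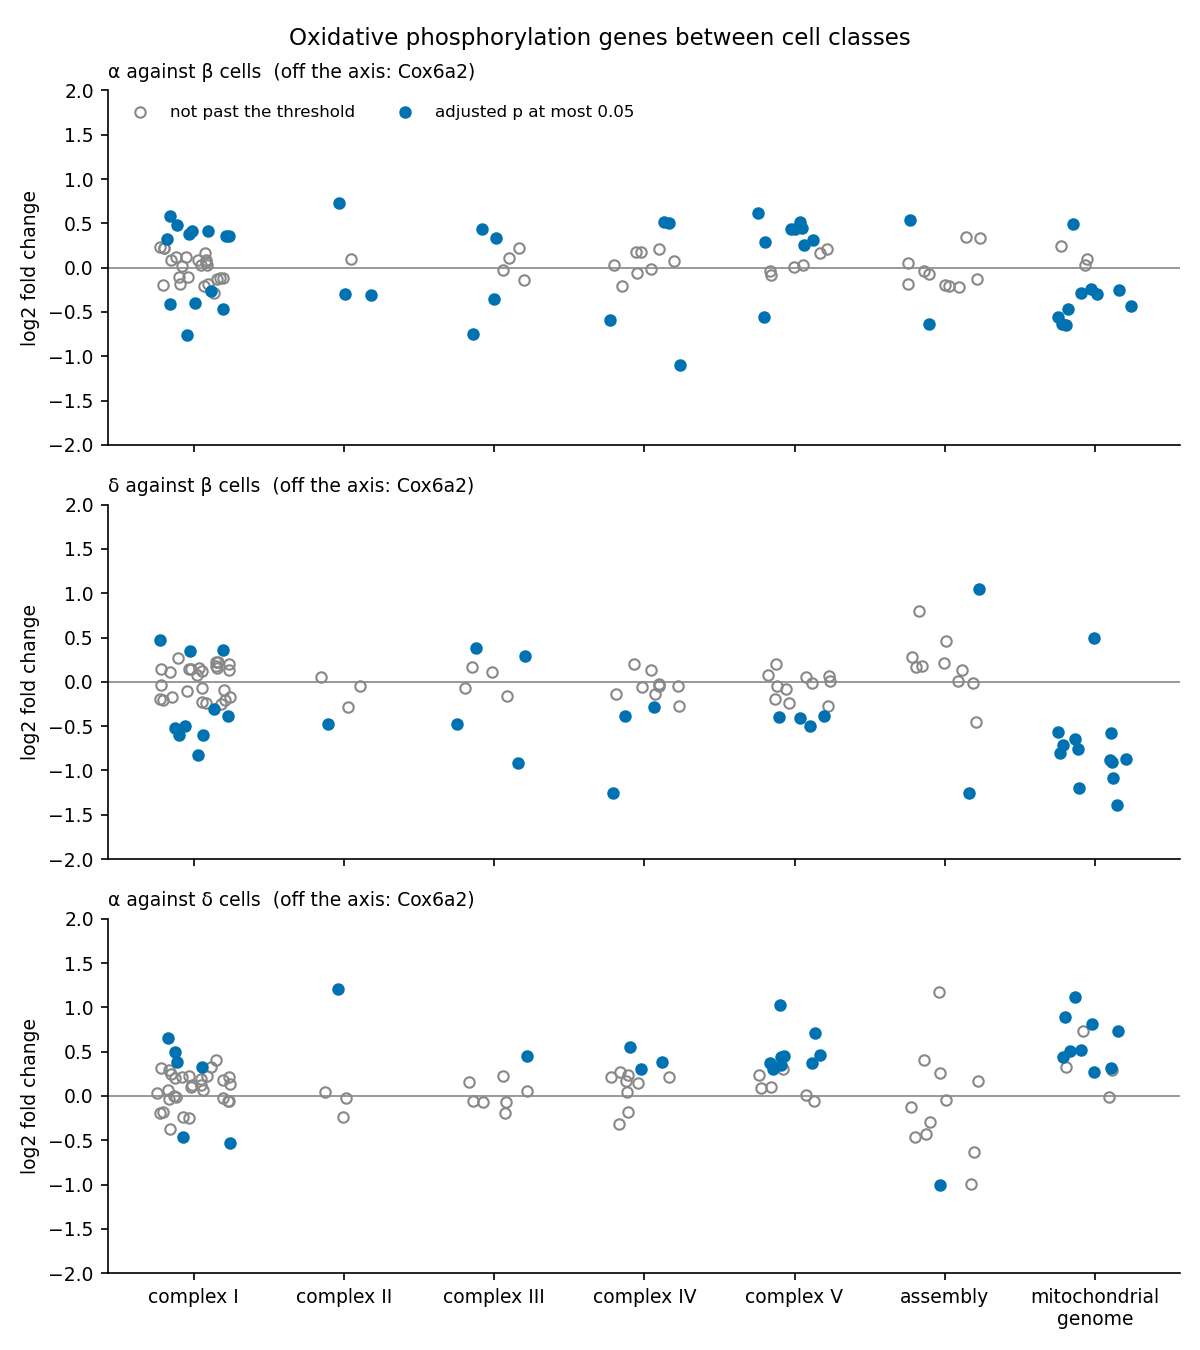
Oxidative phosphorylation genes between cell classes. The axis gives edgeR's log2 difference for α against β, δ against β and α against δ, each point is 1 gene grouped by complex and genome, filled points had an adjusted p of at most 0.05, and Cox6a2 lies off the axis. In complex V, 8 of 15 genes are higher in α- than in β-cells and 9 higher in α- than in δ-cells, and 12 of 13 mitochondrial genes are lower in δ- than in β-cells.

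Genes next to the respiratory chain were read from fixed lists. Of the 19 genes of the tricarboxylic acid cycle and pyruvate use, 12 stood at least 1.3-fold higher and 1 lower in β-cells with IL-1β, 3 and 1 with IFN-γ and 3 and 2 with both. Over all genes the β-cell shares were 57.5% higher and 9.34% lower with IL-1β, 42.5% and 1.76% with IFN-γ, and 36.3% and 17.0% with both, which is also the background for the lists that follow. In α-cells, where all genes gave 25.8% and 26.7%, 24.6% and 12.9%, and 23.9% and 32.8%, the same list gave 2 higher and 6 lower, 2 and 3, and 2 and 11 of 18. In δ-cells it gave 4 and 5, 1 and 4, and 0 and 10 of 18, against 32.0% and 30.2%, 22.4% and 27.1%, and 27.6% and 40.3% of all genes. Pcx, which makes oxaloacetate from pyruvate, had 40.4, 18.5, 26.7 and 16.6 CPM in β-cells, each treated value lower than untreated. Pcx also separated the classes, with at most 6.87 CPM in any α-cell library, a log2 difference of -2.55 ± 0.25 for α- against β-cells (adjusted p = 2.19e-07). Dld, the shared lipoamide dehydrogenase subunit, was 2.15-fold (1.961 to 2.365) of untreated with IL-1β and 1.87-fold (1.71 to 2.04) with both in β-cells. Fh1, fumarase, was 0.424-fold (0.295 to 0.609) with both in α-cells and 0.238-fold (0.116 to 0.49), 0.396-fold (0.243 to 0.646) and 0.162-fold (0.0672 to 0.392) with IL-1β, IFN-γ and both in δ-cells.

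Of the assembly factors and carriers at the floor, 5 of 14 stood higher and none lower in β-cells with IL-1β, 4 and 0 of 13 with IFN-γ and 1 and 3 of 14 with both. In α-cells 1 stood higher and 6 lower of 16 with IL-1β, 1 and 1 with IFN-γ and 0 and 7 with both, and in δ-cells 5 and 4 of 18, 1 and 1 of 15 and 3 and 7 of 16. All genes gave 25.8% higher and 26.7% lower, 24.6% and 12.9%, and 23.9% and 32.8% in α-cells, and 32.0% and 30.2%, 22.4% and 27.1%, and 27.6% and 40.3% in δ-cells. The β-cell counts on the higher side were below the 57.5%, 42.5% and 36.3% of all genes, and the median of the list relative to all genes was -0.24, -0.09 and -0.14 log2 there. Usmg5, a small protein of ATP synthase dimers, was 2.43-fold (2.29 to 2.58) of untreated in β-cells with IL-1β. Uqcc2, an assembly factor of complex III, was 0.565-fold (0.496 to 0.645) with IL-1β in α-cells and 0.506-fold (0.436 to 0.587) with both. Higd1a, a protein of the respiratory supercomplexes, set α-cells apart, with 439, 329, 478 and 333 CPM against 2.59, 8.1, 3.79 and 5.81 in β-cells, a log2 difference of 6.04 ± 0.23 (adjusted p = 5.1e-13). In δ-cells Higd1a had 0, 0, 7.08 and 6.12 CPM in the order untreated, IL-1β, IFN-γ and both. The log2 difference against δ-cells, 6.58 ± 0.41, rests on these few counts and is not an exact value. Between α- and β-cells this list had 7 higher and 3 lower of 26 tested, the tricarboxylic acid cycle list 1 and 4 of 19, the transcription list 2 and 1 of 15 and the membrane transport list 5 and 1 of 7, where all genes gave 19.8% and 21.6%. In the same order the lists gave 1 and 1, 1 and 3, 0 and 1, and 2 and 1 for δ- against β-cells, where all genes gave 13.7% and 16.1%, and 3 and 1, 1 and 0, 1 and 0, and 1 and 0 for α- against δ-cells, where they gave 8.21% and 8.88%.

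Of the 17 genes for the transcription of both sets of genes and the stability of their RNA, only 4 to 6 reached the floor. In β-cells 2 of 4 stood higher with IL-1β and 2 with IFN-γ, and none with both, where 1 stood lower, beside 57.5%, 42.5% and 36.3% of all genes higher, and 4 genes are too few to set against those shares. Slirp, which binds mitochondrial RNA, was 2.02-fold (1.8 to 2.26) of untreated with IL-1β in β-cells, and its partner Lrpprc was 0.714-fold (0.628 to 0.811) with both. Of the 7 membrane transport genes, 4 stood higher and 1 lower in β-cells with IL-1β, 1 and 0 with IFN-γ and 0 and 1 with both, against 0 and 2, 0 and 1 and 0 and 4 in α-cells and 0 and 2, 0 and 2 and 0 and 3 in δ-cells. The share of all genes on the lower side was 26.7%, 12.9% and 32.8% in α-cells and 30.2%, 27.1% and 40.3% in δ-cells. The 4 of 7 with IL-1β in β-cells are at the 57.5% of all genes, and the medians of the list relative to all genes were -0.08, -0.05 and -0.10 log2 in β-cells. The 1 that was lower in β-cells with IL-1β was Ucp2, an inner membrane carrier, at 0.639-fold (0.589 to 0.692), and in α-cells with IL-1β it was 0.467-fold (0.389 to 0.56).

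From cell to cell, the nuclear share of UMIs in β-cells had medians of 1.39%, 1.65%, 1.62% and 1.36% and coefficients of variation of 0.266, 0.266, 0.272 and 0.293. Counting alone would give coefficients of 0.0821, 0.0905, 0.0815 and 0.0826 at these depths. The nuclear share ran against the hormone share of the same cell, with Spearman coefficients of -0.61, -0.56, -0.69 and -0.67 over the 1191, 1172, 1287 and 1297 cells. Both shares have the same total, so a negative coefficient is partly built in. Between the nuclear and mitochondrial shares the coefficients were 0.03, -0.14, -0.17 and -0.06, and with the hormone genes out of the total they were -0.39, -0.27, -0.38 and -0.32. These too share a total, and cells of 1 library are not replicates.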

How the data were processed

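Single-cell 3′ libraries of mouse islets were measured in 4 samples, 1 per condition. The authors counted UMIs with Cell Ranger. The deposited matrices hold raw UMI counts per gene and barcode, whole numbers without normalization, with a software version of 3.0.0 in their headers, and the submitters' processing notes name the build mm10. The reagent kit is version 3 in the study's methods and version 2 in the labels. Summed counts in kept β-cells were 20115455 untreated, 10126701 with IL-1β and 14262998 with IFN-γ, and 16011673 for the combination, so ratios of members with few counts are the least precise. Of 12571 barcodes, 7471 passed the limits. In all, 1220 cells were in no class and 168 in the pancreatic polypeptide class. Between 1 and 4 barcodes were shared by each pair of libraries. Free RNA was not removed.

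Summed UMIs per class and library were scaled to CPM. Treated libraries were compared with the untreated one without a test, with 95% intervals for counting error and a call at 1.3-fold. The classes and the Hspa1a-high cells were compared with edgeR 4.0.16 (quasi-likelihood, TMM, library block, Benjamini-Hochberg over all genes, threshold 0.05) in R 4.3.3, with DESeq2 1.42.0 as an alternative. Other steps used Python 3.11.15, numpy 2.4.6, pandas 2.3.3, scipy 1.17.1 and scanpy 1.11.5, and the fits were tested on simulated data. Named genes were all mitochondrial members, the nuclear member of each complex with the highest mean CPM over the 12 class and library sums, isoform pairs, and the 5 (β) or 3 (α and δ) nuclear members with the largest ratios in each direction, with 5 per tested contrast and 3 from the lists of assembly factors and carriers, tricarboxylic acid cycle, transcription and membrane transport. The members and lists were chosen with earlier results of these data known. Gene positions are from GENCODE M21 on GRCm38. Alternatives varied the cell limits, class rule, depth, total, floor, fold, block and libraries.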

Additional observations from a re-analysis of the deposited data

Results flagged for a closer look

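The mitochondrial genes, summed and set as a ratio to untreated, lay on opposite sides of the median of all genes in the cell classes. With IL-1β the log2 value was -0.16 in β-cells, 0.38 in α-cells and 0.21 in δ-cells. With both cytokines it was -0.15 in β-cells, 0.36 in α-cells and 0.28 in δ-cells. Before the median of all genes was subtracted, every one of these sums lay above untreated. Those log2 values were 0.32, 0.37 and 0.24 in β-, α- and δ-cells with IL-1β, and 0.02, 0.26 and 0.14 with both. The difference between classes was not tested, since each condition had 1 library, and the δ-cell sign with a mitochondrial limit of 20% was the other way.

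Cells outside the β, α and δ classes, which no comparison used, also held less Ndufa4 with both cytokines than untreated. The log2 ratio was -1.58 (-2.17 to -0.98) in pancreatic polypeptide cells, from 79 untreated UMIs and 32 with both. In cells without a class it was -1.0 (-1.19 to -0.82). Among cells without an Hspa1a UMI the ratios were -1.255 (-1.90 to -0.61) and -0.72 (-0.94 to -0.50) in the same order. These intervals are for counting error only.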

How the results depend on the processing

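Of the values that answer a comparison, 238 settings left a log2 value within the counting error of the main value or a count within 1.5 times the main count. A further 137 moved it and 9 turned its direction. The cause was not tested for any of them. Nuclear and mitochondrial values are log2 ratios to untreated relative to all genes, and where 3 values follow each other they are IL-1β, IFN-γ and both. With ratios relative to the median of all genes, the count past the fold was 4 (IFN-γ) and 21 (both) in β-cells and 20 (IFN-γ) in α-cells. With no upper limit of genes, the nuclear value was -0.26, -0.13 and -0.19 in β-cells, -0.18 (IFN-γ) and -0.28 (both) in α-cells and -0.12, -0.00989 and -0.23 in δ-cells, and the mitochondrial value was -0.074, 0.087 and -0.081 in β-cells, 0.35 (IL-1β) and 0.27 (IFN-γ) in α-cells and 0.23 (IFN-γ) in δ-cells. With a mitochondrial limit of 20%, the mitochondrial value was -0.18, 0.026 and -0.24 in β-cells, 0.26, 0.28 and 0.27 in α-cells and -0.15, 0.11 and -0.051 in δ-cells. With cells assigned by leading hormone only, the nuclear value was -0.20, -0.092 and -0.16 in β-cells, -0.33 (IL-1β) in α-cells and -0.36, -0.11 and -0.36 in δ-cells, and the mitochondrial value was -0.18, -0.030 and -0.14 in β-cells, 0.36 (IL-1β) in α-cells and 0.080, 0.058 and 0.21 in δ-cells. In cells of 5000 to 15000 UMIs, the nuclear value was -0.080, 0.029 and -0.063 in β-cells, -0.11 (IFN-γ) and -0.31 (both) in α-cells and -0.12 (IL-1β) in δ-cells, and the mitochondrial value was -0.24, -0.10 and -0.30 in β-cells and 0.14 (IL-1β) and 0.14 (both) in δ-cells, and the count past the fold was 12 (IFN-γ) in β-cells. Without the Hspa1a-high cells, the nuclear value was -0.25, -0.11 and -0.18 in β-cells and -0.40 (both) in δ-cells, and the mitochondrial value was -0.18 (IL-1β) and -0.16 (both) in β-cells and 0.057 (both) in δ-cells. In cells of that depth with no upper gene limit, the nuclear value was -0.083, 0.034 and -0.059 in β-cells, -0.31 (both) in α-cells and -0.12 (IL-1β) and 0.023 (IFN-γ) in δ-cells, and the mitochondrial value was -0.24, -0.10 and -0.31 in β-cells, 0.37 (IL-1β) and 0.28 (IFN-γ) in α-cells and 0.066, 0.18 and 0.074 in δ-cells, and the count past the fold was 12 (IFN-γ) in β-cells. With the hormone genes out of the total, the nuclear value was -0.18 (IL-1β) and -0.15 (both) in β-cells, and the mitochondrial value was -0.12, 0.023 and -0.105 in β-cells and 0.38 (both) in α-cells, and the count past the fold was 5 (IFN-γ) and 29 (both) in β-cells and 25 (IFN-γ) in α-cells. With hormone and mitochondrial genes out of it, the nuclear value was -0.18, -0.092 and -0.13 in β-cells, and the mitochondrial value was -0.11, 0.025 and -0.094 in β-cells and 0.39 (both) in α-cells, and the count past the fold was 5 (IFN-γ) and 29 (both) in β-cells and 22 (IFN-γ) in α-cells. With each cell weighted equally, the nuclear value was -0.19, -0.046 and -0.13 in β-cells, -0.20 (IL-1β) and -0.30 (both) in α-cells and -0.00909 (IFN-γ) in δ-cells, and the mitochondrial value was -0.18, -0.013 and -0.18 in β-cells, 0.25, 0.18 and 0.27 in α-cells and 0.26, 0.32 and 0.42 in δ-cells. With a floor of 5 CPM, the nuclear value was -0.14, -0.059 and -0.091 in β-cells, -0.24 (IL-1β) and -0.28 (both) in α-cells and -0.21 (both) in δ-cells. With the summed UMIs of all nuclear members, the nuclear value was -0.22, -0.081 and -0.16 in β-cells, -0.21 (IL-1β) and -0.25 (both) in α-cells and -0.14 (IL-1β) and -0.0034 (IFN-γ) in δ-cells. With a fold of 1.5, the count past the fold was 16, 2 and 4 in β-cells, 21, 5 and 27 in α-cells and 19 (IL-1β) and 10 (IFN-γ) in δ-cells. Without a block for library, the nuclear and mitochondrial genes called were 8 and 1 for α against β, 4 and 4 for α against δ, and 1 and 0 for Hspa1a-high against other β-cells, and the nuclear genes called were 6 for δ against β. With no filter on low counts, 9 nuclear genes were called in Hspa1a-high β-cells, against 15. With each library left out in turn, nuclear genes called ranged from 27 to 31 for α against β, 16 to 18 for δ against β, 11 to 15 for α against δ and 1 to 21 for Hspa1a-high cells, and mitochondrial genes from 6 to 9, 12 to 12, 6 to 11 and 1 to 3. The Sdhaf3 difference between δ- and β-cells was 0.015 with leading hormone only.

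The Ndufa4 log2 ratio with both cytokines was -1.20 to -0.72 in β-cells, -2.71 to -1.89 in α-cells and -1.67 to -0.80 in δ-cells over 10 alternatives, of which cells without an Hspa1a UMI were added after the data were seen, as were the centring, the joint change of gene limit and depth, and the complex I values. Scrublet marked at most 0.276% of cells in any library, too few to be of use, so the alternative that removes doublets was not run. No paired analysis of the conditions was possible because the labels give each condition 1 library and no shared replicate number. The 27 untreated δ-cells and 88 untreated α-cells limit the precision of every ratio in these classes, where 20 CPM is about 5 UMIs in untreated δ-cells.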

Other observations

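The gene next to Ndufa4 on chromosome 6, Phf14, was looked up after the values of Ndufa4 were seen. In the order untreated, IL-1β, IFN-γ and both, Phf14 had 36.6, 49.6, 48.2 and 26.2 CPM in β-cells, 68.6, 41.7, 74.3 and 28.2 in α-cells and 52.5, 45.8, 55.5 and 12.2 in δ-cells. The δ-cell values rest on 13, 17, 47 and 4 UMIs. Whether the level of one follows the other was not tested.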
